A study of Mus musculus with 8 samples.

Results

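The core genes of nonsense-mediated RNA decay (NMD) were examined in the frontal cortex of mice that lack HAR123, an enhancer that lies within an intron of one of them, Smg6. The group comprised 9 of the 55536 genes in the count table, taken by name: Smg6, Smg1, Smg5, Smg8, Smg9, Upf1, Upf2, Upf3a and Upf3b. All 9 had enough reads to be tested. RNA-seq of total RNA depleted of ribosomal RNA was done on 8 libraries, of which 4 were WT and 4 HAR123-KO, from mice 8 weeks old. The HAR123-KO line was made by injecting Cas9 and guide RNAs into C57BL/6J zygotes and is a germline deletion, so the element is missing from every cell type of the tissue. WT animals were littermates, and the strains had been backcrossed to C57BL/6J. The labels do not state whether each library came from a separate animal, so p-values measure only the spread between these libraries. Where the deletion lies among the exons of Smg6 was not examined here, and the Smg6 count therefore does not report on the deletion itself.

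NMD is a surveillance pathway that destroys mRNAs on which translation stops too early, as well as a set of normal transcripts with long 3′ untranslated regions, upstream reading frames or introns after the stop codon. The RNA helicase UPF1 is its centre. UPF2 and the UPF3 proteins link UPF1 to exon junction complexes left downstream of the stop codon, the kinase SMG1 then phosphorylates UPF1 under the control of SMG8 and SMG9, and phosphorylated UPF1 recruits decay proteins, SMG5 and SMG6 among them. Several NMD factor mRNAs are themselves degraded by NMD, a feedback by which cells are known to raise these mRNAs when the pathway is impaired. In neurons the pathway shapes axon guidance and synaptic function, and variants of UPF3B cause intellectual disability. The comparison asked whether these genes were expressed at a different level in the absence of HAR123.

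No member passed the test for a difference between the genotypes. By DESeq2, 0 of 9 members passed the limits the study used for this tissue (a log2 fold change over 0.5 in size, with an adjusted p under 0.05), against 0.298% of the 12758 genes that received an adjusted p. At an unadjusted p under 0.05 the count was again 0 of 9 by DESeq2, edgeR and limma-voom, against 8.78% of all genes tested by DESeq2, 12.8% by edgeR and 12.7% by limma-voom. Among 9 genes, a count of 0 is close to what these shares give. The ranges of the 2 genotypes overlapped for all 9 members. Of all tested genes 7.67% had no overlap, and 0 of 9 is close to that share as well. Log2 fold changes ran from -0.07 for Smg1 to 0.20 for Upf3b, with a median of 0.04 over the members, 6 positive and 3 negative, beside a median of -0.002 over all genes tested. Summed over the members, normalized counts (reads divided by the library's size factor) ran from 2178 to 2282 in WT and from 2176 to 2291 in HAR123-KO.

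**Figure D1:**
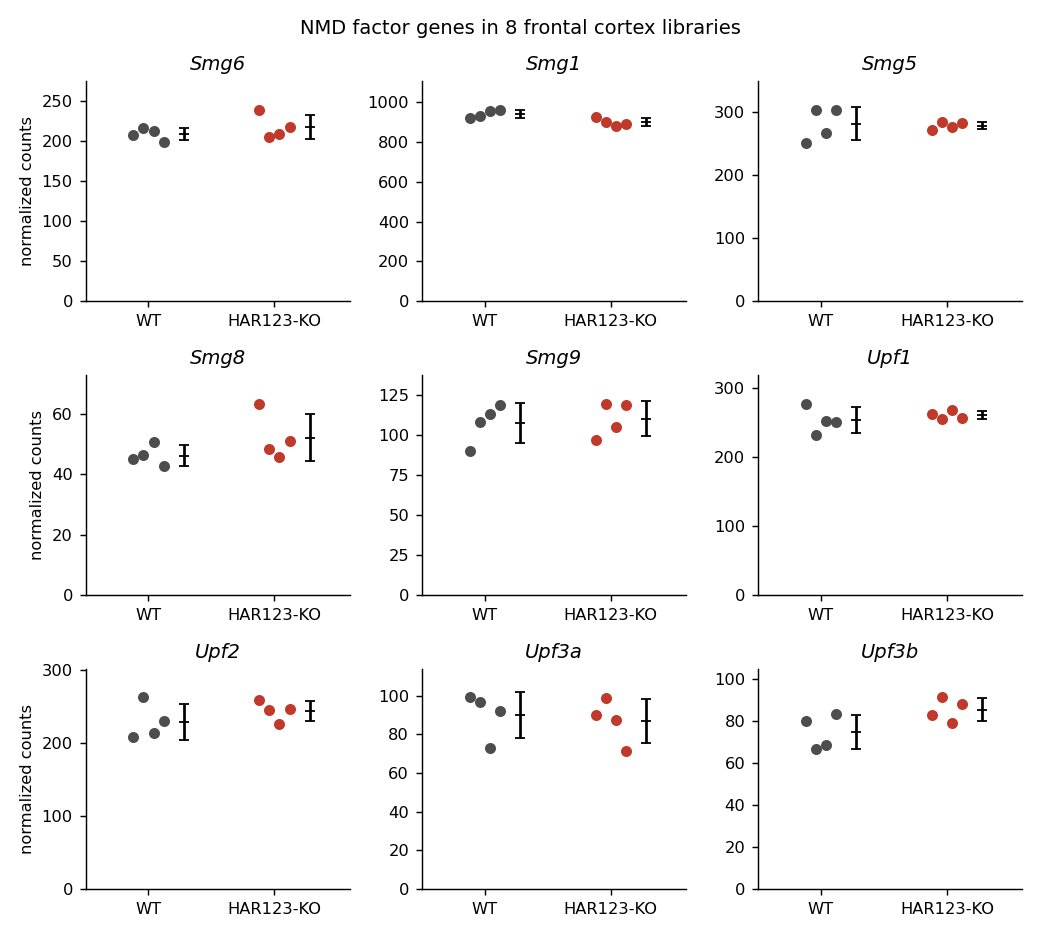
Normalized counts (y axis, starting at 0) of the 9 NMD factor genes in each of 4 WT libraries (grey) and 4 HAR123-KO libraries (red); each point is 1 library, and the black mark with bars is the mean ± SD. In every panel the points of the genotypes overlap, and HAR123-KO replicate 1 is the highest library for Smg6 (239.6) and Smg8 (63.5).

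Smg6, which encodes the endonuclease of the pathway, is the host of the deleted element. The gene (ENSMUSG00000038290) lies on chromosome 11 from 74925823 to 75164448 on the plus strand (GRCm38), with 8453 exon bases in 22 blocks. Its normalized counts were 208, 217, 213 and 199 in WT replicates 1 to 4 and 239.6, 205, 209 and 218 in HAR123-KO replicates 1 to 4. Only HAR123-KO replicates 1 and 4 lay above the highest WT library, and both by less than the range of their own group. The WT libraries averaged 209 ± 7.78 and the HAR123-KO libraries 218 ± 15.4 (SD, n = 4). The log2 fold change was 0.05 ± 0.09 (SE, with an adjusted p of 0.964 by DESeq2), and its 95% interval ran from -0.12 to 0.23, that is, from 0.92 to 1.17 times the WT level. The 5′ end of Smg6 shares 126 bases, 1.49% of its exon bases, with Srr (serine racemase) on the opposite strand. Srr averaged 335 ± 20.4 normalized counts in WT libraries and 328 ± 22.5 in those of HAR123-KO (SD, n = 4), or on the log2 scale a fold change of -0.03 ± 0.07 (SE, with an adjusted p of 0.984 by DESeq2). The antisense gene Gm12333 shares 117 Smg6 exon bases and had no counts in any library.

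SMG5 also acts on phosphorylated UPF1, and is known to serve the removal of the poly(A) tail and cap of the target. Smg5 (ENSMUSG00000001415, chromosome 3, 88336260 to 88362338) had 252, 303, 267 and 304 normalized counts in WT replicates 1 to 4 and 272, 284, 276 and 283 in HAR123-KO replicates 1 to 4. All 4 HAR123-KO libraries fell inside the WT range, and the log2 fold change was -0.01 ± 0.08 (SE, with an adjusted p of 0.995 by DESeq2).

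SMG1 is a large kinase whose substrate in this pathway is UPF1, and its mRNA had the most counts of the group. Smg1 (ENSMUSG00000030655, chromosome 7, 118131308 to 118243670) had 918, 929, 956 and 961 normalized counts in WT replicates 1 to 4 and 925, 901, 881 and 891 in HAR123-KO replicates 1 to 4. The genotypes overlapped through a single library, HAR123-KO replicate 1, which lay above WT replicate 1. It averaged 941 ± 20.9 in WT libraries and 899.6 ± 18.5 in those of HAR123-KO (SD, n = 4), and differed by -0.07 ± 0.04 on the log2 scale (SE, with an adjusted p of 0.753 by DESeq2). The 95% interval, from -0.15 to 0.02, was the narrowest of the members.

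SMG8 and SMG9 bind SMG1 and hold the kinase in check. Smg8 (ENSMUSG00000020495, chromosome 11, 87077732 to 87086774) was the member with the fewest counts, and had 45.0, 46.3, 50.8 and 42.8 normalized counts in WT replicates 1 to 4 and 63.5, 48.5, 45.8 and 51.0 in HAR123-KO replicates 1 to 4. HAR123-KO replicate 1 stood above the other 7 libraries, which lay between 42.8 and 51.0. The log2 fold change of 0.16 ± 0.19 (SE, with an adjusted p of 0.924 by DESeq2) had the widest interval of the group, from -0.20 to 0.53, which does not exclude a change of the size of the 0.5 limit in this gene. Without HAR123-KO replicate 1 it was 0.06. Smg9 (ENSMUSG00000002210, chromosome 7, 24399619 to 24422778) averaged 107 ± 12.4 normalized counts in WT libraries and 110.2 ± 11.1 in those of HAR123-KO (SD, n = 4), and ranged from 90.1 to 119 and from 97.3 to 119.8. Its log2 fold change was 0.03 ± 0.13 (SE, with an adjusted p of 0.992 by DESeq2).

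Upf1 (ENSMUSG00000058301, chromosome 8, 70331525 to 70353278) encodes the helicase on which all branches converge. It had 277, 232, 252 and 251 normalized counts in WT replicates 1 to 4 and 262, 255, 268 and 256 in HAR123-KO replicates 1 to 4. The HAR123-KO libraries fell inside the WT range, and the log2 fold change was 0.04 ± 0.08 (SE, with an adjusted p of 0.977 by DESeq2). The 3′ end of Upf1 shares exon bases with Cers1 (68 bases, 1.47% of its exon bases) and Gdf1 (63 bases) on the opposite strand. Cers1 averaged 146 ± 12.7 normalized counts in WT libraries and 150.5 ± 17.9 in those of HAR123-KO (SD, n = 4), and Gdf1 had none in any library. Upf2 (ENSMUSG00000043241, chromosome 2, 5951469 to 6056703), the adaptor between UPF1 and UPF3, averaged 229 ± 24.1 normalized counts in WT libraries and 244 ± 13.5 in those of HAR123-KO (SD, n = 4). Its libraries ranged from 209 to 263 and from 226 to 259, and the log2 fold change was 0.09 ± 0.09 (SE, with an adjusted p of 0.891 by DESeq2).

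The UPF3 paralogs bind the exon junction complex. UPF3B promotes NMD, while UPF3A is the weaker paralog. The UPF3A protein is known to be stabilized when UPF3B is lost, which counts of mRNA do not measure. Upf3a (ENSMUSG00000038398, chromosome 8, 13785615 to 13799193) had 99.1, 96.8, 72.9 and 92.0 normalized counts in WT replicates 1 to 4 and 90.1, 98.9, 87.2 and 71.3 in HAR123-KO replicates 1 to 4. Each genotype held 1 low library, WT replicate 3 and HAR123-KO replicate 4. Upf3b (ENSMUSG00000036572, chromosome X, 37091678 to 37110322) had 79.9, 66.9, 68.6 and 83.4 normalized counts in WT replicates 1 to 4 and 82.9, 91.3, 79.2 and 88.3 in HAR123-KO replicates 1 to 4. All 4 HAR123-KO libraries lay above the WT mean of 74.7 ± 8.19 (SD, n = 4), but 2 of them, replicates 1 and 3, lay within the WT range. The log2 fold change was -0.04 ± 0.14 for Upf3a and 0.20 ± 0.15 for Upf3b (SE, with an adjusted p of 0.990 and 0.802 by DESeq2). For Upf3b the 95% interval ran from -0.09 to 0.48, a level from 0.941 to 1.40 times WT.

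Promoters were searched for sequence that members share and the choice by name did not use. Both elements below were chosen after these sequences were seen, so the shares beside them are not a test of enrichment. RefSeq promoters (GRCm38.p6, 250 bases before to 50 after the start) were found for all 9 members. The element TCGCGAGA, on either strand, was in those of Smg5 and Upf3b, and in 0.995% of 32851 promoters. The element GCATGCGC, the core of the NRF1 motif, was in those of Smg9 and Upf1, and in 2.71%. For Smg5, Upf3b and Upf1, a match whose flanking bases also lay clear of annotated exons is shown with the flanking bases on the gene's strand, with the elements in capitals, which run to 10 bases where matches on both strands overlap. The printed stretches lie at chr3:88336174-88336233 (plus), chrX:37110357-37110418 (minus) and chr8:70353490-70353529 (minus), and the capitals in them begin 60, 70 and 246 bases before the start. A further match in Smg5, 11 bases before the start, has a flank that runs into an exon, and the match in Smg9 lies within an exon, so neither is shown. These are matches of letters, and binding was not measured.
Smg5: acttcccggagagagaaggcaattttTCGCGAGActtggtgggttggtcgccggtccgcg
Upf3b: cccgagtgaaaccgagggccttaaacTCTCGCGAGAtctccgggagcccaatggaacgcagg
Upf1: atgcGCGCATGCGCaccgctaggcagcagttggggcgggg
The genes that carry these elements, Smg5 and Upf3b in one pair and Smg9 and Upf1 in the other, had log2 fold changes of -0.01 and 0.20, and of 0.03 and 0.04.

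The width of these intervals set what could be seen. The 95% interval lay inside ±0.5 on the log2 scale for 8 of 9 members, with Smg8 as the exception, and inside ±0.25 for 4 of 9, which were Smg6, Smg1, Smg5 and Upf1. The median SE was 0.090 over the members, beside 0.109 over the 8646 tested genes whose mean counts lay between those of the lowest and the highest member.

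**Figure D2:**
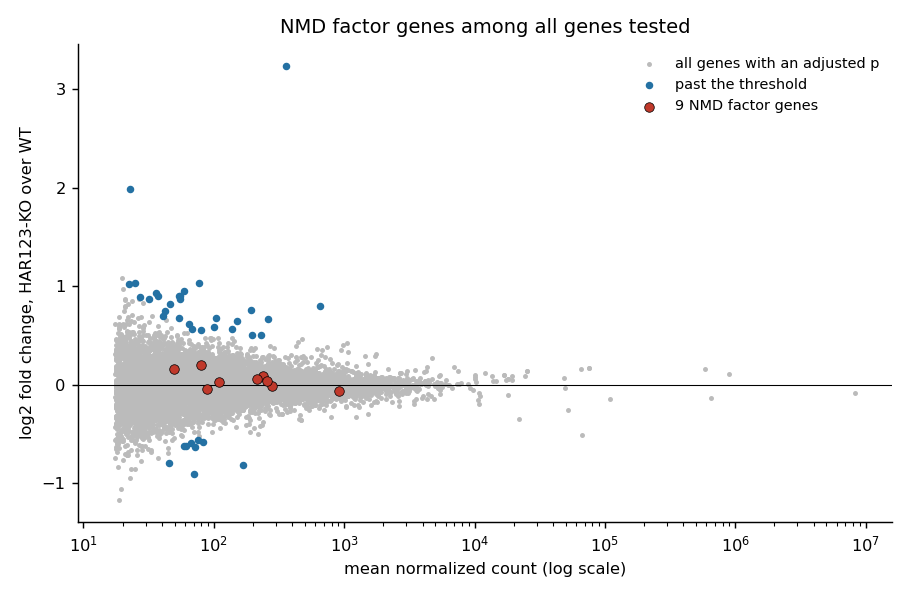
Log2 fold change of HAR123-KO over WT (y axis) against the mean normalized count (x axis, log scale) of the 12758 genes with an adjusted p (light grey); the 38 genes past the limits are blue and the 9 NMD factor genes red. The red points lie between -0.07 and 0.20, within the grey band, and none is past the limits.

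Because a long gene collects more reads, levels were compared between genes as normalized counts per kb of exon. The length joins the exons of all annotated transcripts of a gene, retained introns included, so the order between genes depends on that annotation. In this order of levels Upf1 came first with 54.8 ± 4.02 per kb in WT (SD, n = 4), and its lowest library of either genotype (50.2) lay above the highest library of every other member. Next stood Upf2 (41.8 ± 4.41), Smg5 (40.5 ± 3.73) and Smg1 (39.2 ± 0.870), whose libraries overlapped one another and so were not separated. Smg9 (29.0 ± 3.34) and Smg6 (24.8 ± 0.921) followed and also overlapped each other. Upf3b (18.7 ± 2.05), Upf3a (15.4 ± 2.03) and Smg8 (14.4 ± 1.05) were lowest, with overlap between each gene and the next. HAR123-KO gave 1 change in this order, in that Smg8 (16.2 ± 2.43 per kb) stood above Upf3a (14.8 ± 1.97 per kb), a difference within their spread. Against 11503 tested protein-coding genes, whose median level in WT was 25.1 per kb, Upf1 stood at percentile 76.5, Smg6 at 49.6 and Smg8 at 29.5.

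**Figure D3:**
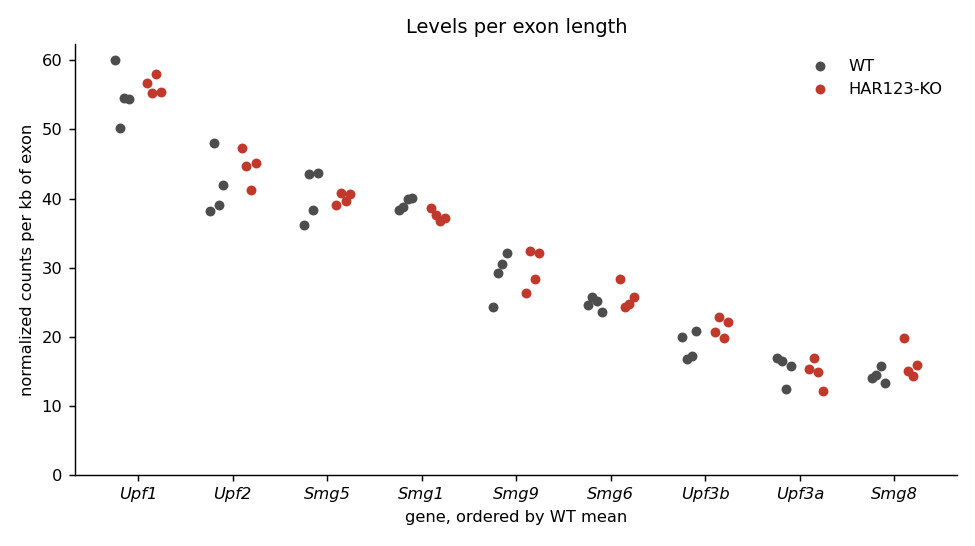
Normalized counts per kb of exon (y axis, starting at 0) of the 9 NMD factor genes, ordered by their WT mean, in WT (grey) and HAR123-KO (red) libraries; each point is 1 library. Upf1 lies at 50.2 to 60.0 per kb, clear of the others, and Smg6 at 23.5 to 28.3.

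Ratios between members within a library do not depend on library scaling, and 2 were tested with two-sided exact permutation tests. The 8 libraries can be split into 4 and 4 in 70 ways, so that p cannot fall below 0.0286. The log2 ratio of Upf3a to Upf3b, from counts per kb, was -0.24, -0.02, -0.47 and -0.41 in WT replicates 1 to 4 and -0.43, -0.44, -0.41 and -0.86 in HAR123-KO replicates 1 to 4. Per kb, Upf3a thus lay below Upf3b in all 8 libraries, and HAR123-KO replicate 4 stood below the other 7. This order rests on exon lengths of 5865 bases for Upf3a and 3999 for Upf3b. In raw counts Upf3a was below Upf3b in HAR123-KO replicate 4 only. The mean log2 ratio differed by -0.25 between HAR123-KO and WT (exact permutation p = 0.2, adjusted p over the 2 ratios = 0.4), and by -0.14 without HAR123-KO replicate 4 (exact permutation p = 0.343). Without WT replicate 3 the difference was -0.31, and the unadjusted exact permutation p reached the smallest value that 35 assignments allow, 0.0286. The log2 ratio of Smg6 to Smg5, which act after UPF1 is phosphorylated, was -0.70 ± 0.15 in WT and -0.64 ± 0.12 in HAR123-KO (SD, exact permutation p and adjusted p both 0.514).

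**Figure D4:**
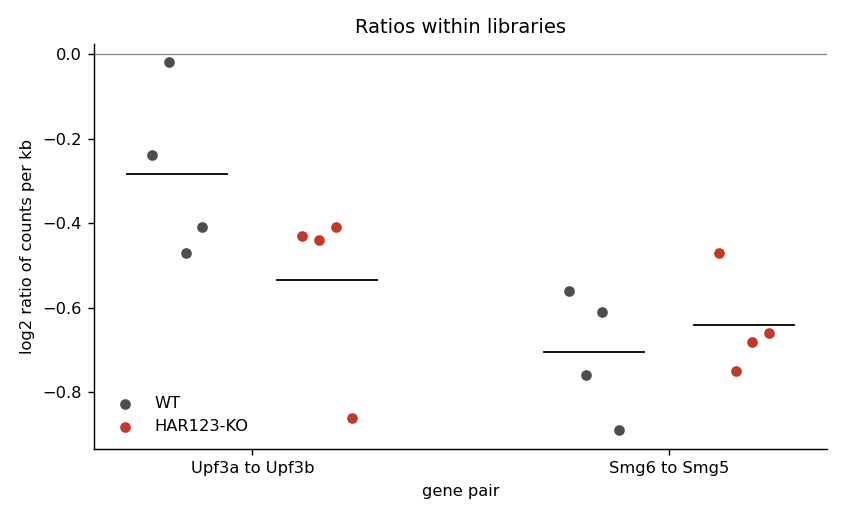
Log2 ratio of counts per kb (y axis) for 2 pairs of NMD genes in WT (grey) and HAR123-KO (red) libraries; each point is 1 library and black lines are group means. The genotypes overlap for each pair, and HAR123-KO replicate 4 is apart at -0.86 for Upf3a to Upf3b.

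Beyond the members, 35 further factors of the pathway were followed in 4 lists, which together held 0 genes past the limits by DESeq2 and 0 at an unadjusted p under 0.05, beside the 0.298% and 8.78% of all genes. By edgeR and by limma-voom 1 of the 35, the helicase gene Mov10, had an unadjusted p under 0.05, beside 12.8% and 12.7% of all genes. None passed the limits by these tools. The 10 other NMD factors had a median log2 fold change of 0.009 and ran from -0.34 for Mov10 to 0.24. Their highest levels per kb in WT were those of Akt1 (97.7), a kinase, and Ice1 (47.6), a scaffold of a transcription elongation complex, with log2 fold changes of 0.04 ± 0.07 and -0.03 ± 0.06 (SE). The 9 genes of the exon junction complex and of splicing included Magohb, which fell below the count filter of DESeq2, and the other 8 had a median of 0.004. Sf3b1 (76.4 per kb), a spliceosome component, and Rnps1 (62.9 per kb), a junction protein, had log2 fold changes of 0.07 ± 0.05 and 0.00 ± 0.07 (SE). The 6 genes of translation termination and cap binding had a median of -0.061. Among them Pabpc1 (88.0 per kb), the poly(A)-binding protein that opposes NMD, and Etf1 (68.6 per kb), a release factor, gave -0.05 ± 0.06 and -0.07 ± 0.09 (SE). The 10 decay genes had a median of -0.052, and Cnot7 (48.7 per kb), a deadenylase, and Edc4 (46.4 per kb), a decapping scaffold, gave -0.05 ± 0.08 and -0.12 ± 0.09 (SE). Of the 34 with an adjusted p, 15 log2 fold changes were positive and 19 negative, and 1 gene had no overlap between genotypes, beside the 7.67% of all genes. This was Exosc10, a nuclear exosome exonuclease named after its values were seen, with 149 to 166 normalized counts in WT and 135 to 146 in HAR123-KO (log2 fold change -0.16 ± 0.11, DESeq2 adjusted p = 0.746).

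Transcripts that NMD degrades offer a view of its output. A list of 13 known targets held 10 with an adjusted p, of which 0 passed the limits by DESeq2, 5 had positive and 5 negative log2 fold changes, and the median was 0.001. At an unadjusted p under 0.05 there were 2 of these 10, in opposite directions, against the 8.78% of all genes. Of the 12 targets that edgeR and limma-voom tested, 4 and 3 had such a p, beside the 12.8% and 12.7% of all genes by these tools, and with a replicate block in DESeq2 none of the 13 had. With a library left out the count was 1 to 3. Atf4, the stress transcription factor whose mRNA carries upstream reading frames, had 219.5, 248, 247 and 249 normalized counts in WT replicates 1 to 4 and 188, 211, 202 and 205 in HAR123-KO replicates 1 to 4. Every HAR123-KO library lay below every WT library, and the log2 fold change was -0.26 ± 0.09 (SE, with an adjusted p of 0.134 by DESeq2). By edgeR its adjusted p was 0.0352 and by limma-voom 0.0540, and over all alternatives it ran from 0.0352 to 1, while the fold change did not reach the 0.5 limit in any. Arc, a neuronal activity gene with introns after its stop codon, had 229.7, 257, 280.5 and 263 normalized counts in WT replicates 1 to 4 and 289, 265, 312 and 303 in HAR123-KO replicates 1 to 4. Its groups overlapped in 1 HAR123-KO library, replicate 2, and the log2 fold change was 0.18 ± 0.08 (SE, with an adjusted p of 0.467 by DESeq2). Gas5, a noncoding RNA known as an NMD reporter and named after its values were seen, some of whose counted exon bases also hold annotated small nucleolar RNAs, averaged 153 ± 19.7 normalized counts in WT libraries and 171 ± 7.75 in those of HAR123-KO (SD, n = 4), or on the log2 scale a fold change of 0.17 ± 0.11 (SE, with an adjusted p of 0.720 by DESeq2). Zfas1, a host RNA of the same kind named after its values were seen, had no overlap between genotypes, with 22.5 to 35.6 in WT and 36.1 to 44.9 in HAR123-KO (log2 fold change 0.41 ± 0.23, DESeq2 adjusted p = 0.627). Atf4 and Zfas1 were the 2 of 10 targets without overlap, beside 7.67% of all genes tested. Atf3, Gadd45a and Gadd45b fell below the count filter of DESeq2 (a mean of 17.6 normalized counts) and have no adjusted p from it. Gadd45b, a stress gene, had 14.4 to 34.2 normalized counts in WT and 8.80 to 19.1 in HAR123-KO (log2 fold change -0.60 ± 0.35), and was the fourth gene under 0.05 by edgeR.

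**Figure D5:**
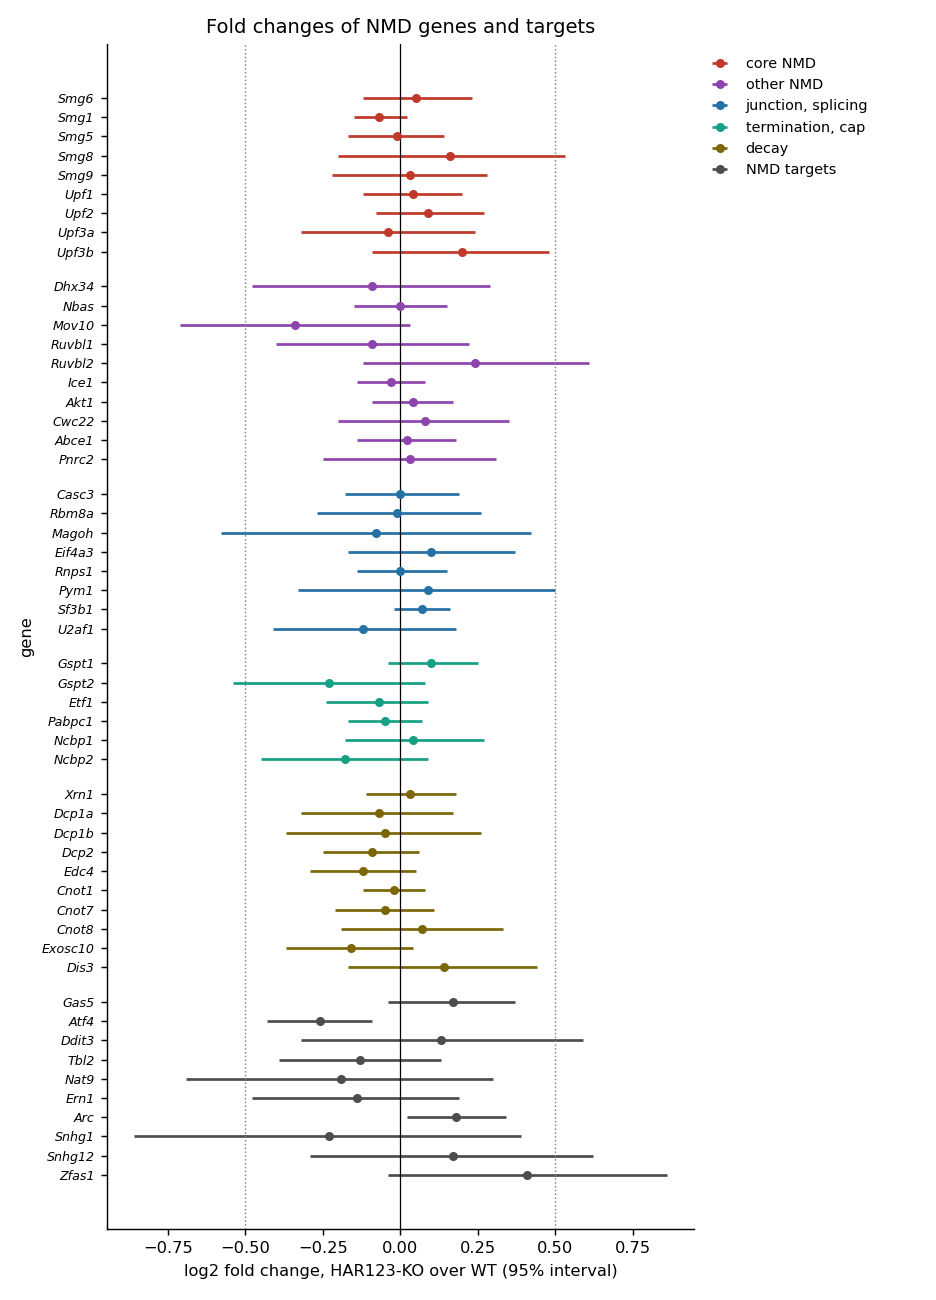
Log2 fold change of HAR123-KO over WT (x axis) with its 95% interval for the NMD genes and targets with an adjusted p, grouped by list and coloured as in the key; dotted lines mark ±0.5. Intervals of the 9 core genes all cross 0, and only those of Atf4 and Arc, of opposite sign, do not.

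The count of a gene sums all its transcripts, and a shift between a productive and a degraded form would not appear in it. In the annotation, 3 of the 9 members (Smg6, Smg1 and Smg5) have a transcript classed as an NMD substrate, 33.3% beside 29.2% of the 11503 tested protein-coding genes. Over the 3358 such genes the median log2 fold change was -0.002, and over the others it was 0.00.

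By the root mean square difference of centred log2 levels over the 8 libraries, the genes nearest to Smg6 among 6589 with at least 100 normalized counts were Chl1 (0.0234), Nyap2 (0.0333) and Nrd1 (0.0351), beside a median of 0.118. Of the other members, 5 had enough counts to be compared, and Smg1 came closest with 0.0897, at rank 1354. Smg8, Upf3a and Upf3b fell below 100 and were not compared.

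The libraries carried cortical markers, and the summed markers of several cell types, cortical neurons included, did not overlap between genotypes. The sums were not tested. Of 6 cortical neuron markers (among them Slc17a7 and Snap25) all were detected in every library, with summed normalized counts of 13048 to 13299 in WT and 12781 to 12897 in HAR123-KO. None of them passed the limits, and Slc17a7 was lower with an adjusted p under 0.05. Of the 6 log2 fold changes, 2 were positive and 4 negative. Choroid plexus markers summed to 81.1 to 95.2 in WT and 694 to 733 in HAR123-KO, where the 2 of 6 genes that had an adjusted p were both past the limits and higher. The other 4, below the count filter of DESeq2, had higher means in HAR123-KO, among them Clic6 with a log2 fold change of 1.61 ± 0.37 (SE), and Kcne2 and Otx2 were at 0 in 3 of 4 WT libraries. Striatal neuron markers summed to 2303 to 2413 and 3197 to 3329.9, with 6 of 6 higher at an adjusted p under 0.05 and 3 of them past the limits. Oligodendrocyte markers summed to 11177 to 11638 and 13123 to 13460.4 (0 of 4 past the limits, 2 higher with an adjusted p under 0.05), and endothelial markers to 265 to 278 and 179 to 213 (1 of 4, lower). Astrocyte markers (2243 to 2365 and 2050.4 to 2255) and microglia markers (621 to 699 and 606 to 635) had 0 of 4 each past the limits, and the astrocyte glutamate transporter gene Slc1a3 was lower with an adjusted p of 0.000288 by DESeq2 (log2 fold change -0.18), while the log2 fold changes were -0.15 for Aqp4, 0.16 for Gfap and -0.02 for Aldh1l1. In such bulk samples a change in the number of cells of a type and a change in RNA per cell cannot be told apart, and the part of these differences in the values of Atf4, Arc and the members was not tested.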

How the data were processed

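The deposited values are raw counts of reads for each gene. Per the authors' methods, reads were aligned with STAR 2.5.2b to GRCm38 (Ensembl annotation) and counted over exons with featureCounts. The library kit was directional, but the strand and multiple-match settings of the counting are not given in the sources used here, so whether genes on opposite strands share counts is not known. Totals per library ran from 13528251 to 17051001, of which Gm42418, a ribosomal RNA gene, held 55.1% to 58.0%, and nuclear protein-coding genes other than Lars2 held 2786320 to 3732172. Symbols came from GENCODE M21, which matched all 55536 identifiers and their coordinates (of 2 rows named Ddit3, the one with more exon bases was used).

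The main test was DESeq2 1.42.0 in R 4.3.3 (Wald test, genotype only, median-of-ratios factors, dispersion trend by local regression, Benjamini-Hochberg adjustment over genes kept by its filter). A gene was past the limits where the log2 fold change exceeded 0.5 in size and the adjusted p was below 0.05. Intervals of 95% assume a normal error. edgeR 4.0.16 (quasi-likelihood) and limma 3.58.1 (voom) were alternatives, with TMM or protein-coding totals as factors, other filters and limits, a replicate block, and each library left out. DESeq2, edgeR and limma-voom with genotype only were also run on simulated counts, whose outcome is not given here. The other alternatives were not simulated. No pair of libraries agreed within sampling noise over 28 pairs. The chi-square per degree of freedom ran from 1.21 to 1.3 within a genotype and from 1.58 to 1.72 between genotypes. Spread beyond counting noise was small within a genotype, with a common coefficient of variation of 3.7% by edgeR.

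Named genes were the members, list genes with an unadjusted p under 0.05, the 2 of highest level per kb in each list, genes sharing exon bases with a member, and the 3 profiles nearest to Smg6. Other genes were named after their values were seen. Members, lists and tests were chosen with earlier results of these data known, and the promoter elements after the sequences were seen. A planned ratio and a gene of a list are not reported here.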

Additional observations from a re-analysis of the deposited data

Results flagged for a closer look

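In 22 groups of 4 values (the members and the 2 ratios in each genotype), 1 library was set apart by a gap that took up most of its group's range beyond Dixon's critical value, where chance gives about 1.1 such groups. It was HAR123-KO replicate 4, whose log2 ratio of Upf3a to Upf3b was -0.861, against -0.437 to -0.415 in the 3 others.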

How the results depend on the processing

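No member, no other NMD factor and no NMD target passed the limits of fold and adjusted p under any alternative, the replicate block included. The log2 fold change of Smg6 ran from 0.01 to 0.08 over 15 alternatives, with a smallest adjusted p of 0.846, and the smallest adjusted p of any member was 0.443 (Smg1). Leaving out a library turned the sign of differences near 0. Over these 8 fits the log2 fold change ran from -0.06 to 0.02 for Smg5, from -0.04 to 0.09 for Smg9 and from -0.14 to 0.04 for Upf3a. Over the same left-out libraries the difference in the log2 ratio ran from -0.31 to -0.14 for Upf3a to Upf3b, and passed an unadjusted p of 0.05 without WT replicate 3 only. Replicate numbers did not pair the libraries (correlation of same-numbered deviations from -0.015 to 0.018 over 8793 genes). With the replicate block the log2 fold change of Smg6 was 0.06 and the paired test of the Upf3a to Upf3b ratio gave -0.25 (exact p = 0.25). The count over all genes, 38, was 73 by edgeR, 9 with the replicate block, 215 without a minimum fold, 3 with the stricter limits of 0.01 and 1, and 11 to 44 with a library left out (11 without HAR123-KO replicate 4, 18 without WT replicate 3). The normalized counts of Upf3a, Upf3b and Smg8, from 42.8 to 99.1, limit what the test can resolve for them.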
